A study of Mus musculus with 26 samples.

Results

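The data on 8 named genes of cell adhesion, 6 classical cadherins and 2 protocadherins, were followed through 26 RNA-seq libraries of mouse gastruloids. They are the entries of the deposited tables whose gene symbol is Cdh2, Cdh3, Cdh4, Cdh6, Cdh11, Cdh20, Pcdh8 or Pcdh19, 8 of 55141 genes counted, taken by symbol. The list was drawn up with earlier results of these data known. Gastruloids are cultured aggregates of embryonic stem cells in which a posterior axis forms, with neural tube, somite and tailbud tissue. Polyadenylated RNA was collected 96, 120, 144 or 168h after aggregation, and the libraries fall into 15 groups of line and stage, 8 of them with 1 library.

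Every line carried the genotype HoxB Del/Del(i9-13), which the labels write with Del before the slash and Del(i9-13) after it. What i9-13 and CBS stand for is not stated in the labels. At 120h, 2 libraries came from InsDel7to10, in which Ins(CBS5-10) was combined with Del(CBS7-10), 2 from InsDel5to10, with Ins(CBS5-10) and Del(CBS5-10), and 2 from InvClone2, with Ins(CBS5-10) and Inv(CBS5-10), labelled clone 2. InsDel8to10, with Ins(CBS5-10) and Del(CBS8-10), and InvDel7to10, with Ins(CBS5-10), Inv(CBS5-10) and Del(CBS7-10), had 1 library each at 120h and 1 each at 144h. InvClone1, with the alleles of InvClone2 but labelled clone 1, had 4 libraries at 120h, 2 at 144h, and 1 each at 96h and 168h. Ins, with Ins(CBS5-10) alone, and Del, with the shared genotype and nothing added, had 3 libraries each at 120h and 1 each at 144h. The labels name a clone for InvClone1 and InvClone2 and for no other line, and wild-type gastruloids were not analysed here.

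The libraries were of similar depth, with 18746411 to 37716547 counted reads. The library name in the labels was ISML_first, ISML_second or ISML_third for 24 of them and TruSeq_second for InvClone1 replicates 2 and 3 at 120h, made with another Illumina kit. InvClone1 replicate 2 at 144h stood apart with 0.0864% of its counts on mitochondrial genes, against 0.587 to 1.51% in the other libraries, and InvClone1 replicate 2 at 120h with counts on 54.8% of genes, against 37.5 to 43.4% elsewhere. Separate cultures are not stated for the replicates. The p-values therefore cover the spread between these libraries alone, which may be technical.

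Classical cadherins are calcium-dependent adhesion proteins that bind cadherins on the neighbouring cell and are tied to the actin skeleton through beta-catenin and alpha-catenin. Cells sort by the cadherins they carry, and the change from E-cadherin to N-cadherin accompanies the formation of mesoderm and of the neural tube. Protocadherins lack the catenin-binding tail of classical cadherins, and Pcdh8, also called paraxial protocadherin, is known from presomitic mesoderm and the borders of forming somites.

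The promoters of 4 of the 8 genes were found in the RefSeq promoter table (build GRCm38.p6), each 300 bases long with 250 bases before the annotated start and 50 after it. The 3 printed here belong to Pcdh19 and Cdh6, which moved most and in opposite directions between 120h and 144h, and to Pcdh8, which did not pass the test of that difference. They lie at chrX:133688944-133689243, chr15:13173626-13173925 and chr14:79771263-79771562, all on the minus strand, and are written 5′ to 3′ with matches to the motifs below in capitals.
Pcdh19: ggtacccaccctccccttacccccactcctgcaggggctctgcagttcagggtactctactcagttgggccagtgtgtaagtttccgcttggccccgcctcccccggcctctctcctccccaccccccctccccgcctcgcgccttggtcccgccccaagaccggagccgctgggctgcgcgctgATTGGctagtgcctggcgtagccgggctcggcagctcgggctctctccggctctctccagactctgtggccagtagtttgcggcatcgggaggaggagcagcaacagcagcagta
Cdh6: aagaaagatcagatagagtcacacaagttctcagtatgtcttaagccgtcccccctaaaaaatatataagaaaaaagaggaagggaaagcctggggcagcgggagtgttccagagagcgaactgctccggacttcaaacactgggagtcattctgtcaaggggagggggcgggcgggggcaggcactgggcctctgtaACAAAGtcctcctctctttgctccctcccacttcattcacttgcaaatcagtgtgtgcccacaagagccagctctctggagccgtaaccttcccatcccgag
Pcdh8: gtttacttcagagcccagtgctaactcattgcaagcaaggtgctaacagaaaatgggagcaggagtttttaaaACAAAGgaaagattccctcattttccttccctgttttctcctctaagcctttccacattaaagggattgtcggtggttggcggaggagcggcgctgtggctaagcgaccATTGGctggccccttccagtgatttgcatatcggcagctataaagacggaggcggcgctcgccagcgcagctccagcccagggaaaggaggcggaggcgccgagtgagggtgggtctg
Both strands were searched for CAGGTG (an E-box of the kind Snail and Zeb factors bind), AGGTGT (a T-box half-site), CTTTGA and CTTTGT (cores read by TCF/LEF and SOX factors) and CCAAT (the CCAAT box). Of 32851 promoters of this length, 20.2% held CAGGTG, 13.7% AGGTGT, 16.0% CTTTGA, 18.7% CTTTGT and 37.4% CCAAT. The capitals in the Cdh6 window mark CTTTGT on the reverse strand (ACAAAG), beginning 52 bases before the start. Pcdh8 held the same reverse-strand motif 177 bases before its start and a CCAAT box on the reverse strand, read here as ATTGG, 68 bases before it. The Pcdh19 capitals mark ATTGG beginning 65 bases before the start, and in the Cdh20 window (chr1:104768270-104768569, plus strand) the CCAAT box occurs on both strands, overlapping, at 96 and 93 bases before it. The E-box, the T-box half-site and CTTTGA were in none of the 4 windows. GC content was 67.7% for Pcdh19 with 18 CpG dinucleotides, 53.0% for Cdh6 with 8 and 54.3% for Pcdh8 with 14, and the medians over all promoters were 52.7% and 7.0 CpG. A match is a description of these letters only.

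Levels were compared between genes in the authors' FPKM, which is scaled by transcript length and total reads, and within one library at a time. Cdh2, which encodes N-cadherin of mesenchyme and neuroepithelium, led the 8 genes in all 18 libraries at 120h, with a lowest level of 56.3, a median of 67.0 and a highest level of 88.3 FPKM. It held 53.2 to 74.8% of the 8 genes' summed FPKM at 120h, with a median of 59.6%, and 61.0 to 72.4% in the 6 libraries at 144h. Cdh11, a cadherin of loose mesenchyme, followed with a median of 17.5 FPKM at 120h, and Pcdh19, an X-linked protocadherin that associates with N-cadherin in zebrafish, with 12.6 FPKM. These neighbours changed places between libraries, since Cdh11 exceeded Pcdh19 in 12 of 18.

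Pcdh8 came next at 120h with a median of 5.97 FPKM, below Pcdh19 in all 18 libraries. Cdh4, which encodes R-cadherin, had a median of 2.74 FPKM and Cdh6, or K-cadherin, 2.48 FPKM, and Cdh4 exceeded Cdh6 in 10 of 18. The order of this pair was not separated by the spread between libraries. Cdh3, which encodes P-cadherin of epithelia, had a median of 0.937 FPKM and lay below Cdh6 in 16 of 18 libraries. Cdh20 was lowest in every library at 120h with a median of 0.216 FPKM, and rested on 8 to 100 reads per library over the whole series.

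At 144h the first places were unchanged, with Cdh2 at a median of 67.9 FPKM and Cdh11 at 16.0 FPKM in 6 libraries. Below them the order differed from 120h: Pcdh8 had 6.93 FPKM, Cdh6 6.69, Cdh3 2.87, Cdh4 2.60, Pcdh19 2.04 and Cdh20 0.131. Pcdh8 exceeded Cdh6 in 4 of 6 libraries, Cdh3 exceeded Cdh4 in 3 of 6 and Cdh4 exceeded Pcdh19 in 4 of 6, so these neighbours overlapped. Pcdh19 had 5 of the 8 genes below it at 120h and only Cdh20 at 144h.

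**Figure D1:**
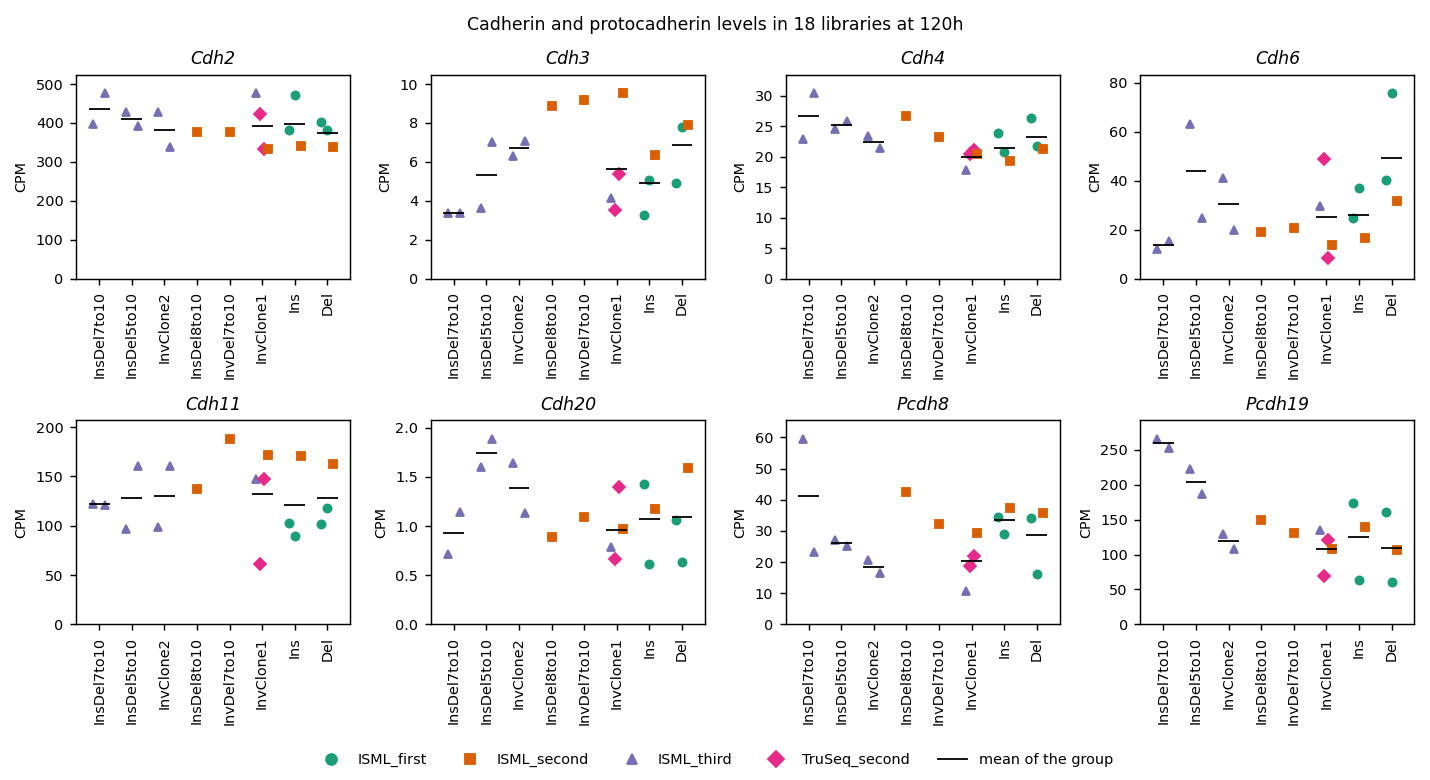
Counts scaled to library size (CPM) of the 8 genes in the 18 libraries at 120h, one panel per gene with its own linear axis from 0, one point per library, lines along the horizontal axis, colours and shapes for the library name, and a bar at the mean of each line with several libraries. Cdh2 spans 333 to 477 CPM over all lines, while Cdh6 spans 8.22 to 75.8 CPM with wide spread inside single lines.

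The change between stages was tested in the 5 lines that had 1 library each at 144h and 120h under the name ISML_second, with line as a term. Values are CPM, counts scaled to a common library size with TMM factors, and each list of 5 runs Del, Ins, InsDel8to10, InvClone1, InvDel7to10. Of the 8 genes 4 passed edgeR's quasi-likelihood test at an adjusted p of 0.05 over 16043 genes, of which 15.1% passed. Cdh3 and Cdh6 were higher at 144h, as were 9.33% of all genes, and Cdh11 and Pcdh19 were lower, as were 5.81%. In bulk RNA, fewer cells of a type and less RNA per cell cannot be told apart.

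Pcdh19 fell most. It had 15.6, 37.0, 20.8, 23.0 and 23.5 CPM at 144h, against 106, 139, 149, 108 and 131 CPM at 120h. The highest library at 144h lay far below the lowest at 120h. The means were 24.0 ± 7.91 CPM at 144h and 127 ± 18.7 CPM at 120h (SD, n = 5 each), a log2 change of -2.42 ± 0.14 (SE; edgeR adjusted p = 4.408e-05). Over all lines and library names, 144h libraries held 15.6 to 37.0 CPM (median 21.9, n = 6) and 120h libraries 60.2 to 266 CPM (median 133, n = 18).

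Cdh6, a type II cadherin known from hindbrain and neural plate domains, kidney precursors and neural crest, rose in all 5 lines. Its level was 95.8, 47.0, 68.2, 41.4 and 70.2 CPM at 144h, against 31.6, 16.5, 19.1, 13.6 and 20.7 CPM at 120h. Del was highest and InvClone1 lowest at both stages, and the 2 stages did not overlap in these libraries. The means were 64.5 ± 21.6 CPM at 144h and 20.3 ± 6.86 CPM at 120h (SD, n = 5 each), and the log2 change was 1.68 ± 0.08 (edgeR adjusted p = 2.209e-05). The ratio of 144h to 120h ranged from 2.85 to 3.57 over the lines. With every library name included, the stages did overlap, at 41.4 to 95.8 CPM (median 64.7, n = 6) at 144h and 8.22 to 75.8 CPM (median 24.8, n = 18) at 120h.

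Cdh3 rose from a low level: it had 19.6, 19.2, 17.3, 20.1 and 17.95 CPM at 144h, against 7.92, 6.33, 8.88, 9.54 and 9.16 CPM at 120h. The libraries at 144h were close to one another and all lay above those at 120h. The log2 change was 1.20 ± 0.12 (edgeR adjusted p = 4.336e-04), with means of 18.84 ± 1.184 CPM at 144h and 8.37 ± 1.28 CPM at 120h (SD, n = 5 each). Cdh3, Cdh6 and Pcdh19 were the 3 of 8 genes whose 5 libraries at each stage did not overlap, as was true of 17.3% of all genes tested. Their calls held in each of the 11 other settings tried.

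Cdh11 fell, by less. It had 114, 143, 118, 88.0 and 123 CPM at 144h, against 163, 171, 137, 172 and 188 CPM at 120h. It was lower at 144h in each of the 5 lines, yet the highest library at 144h, of Ins, lay above the lowest at 120h, of InsDel8to10. The means were 117 ± 19.7 CPM at 144h and 166 ± 18.7 CPM at 120h (SD, n = 5 each), with a log2 change of -0.49 ± 0.11 (edgeR adjusted p = 0.0166). This call was lost without the Del pair (adjusted p = 0.0712), without the InvDel7to10 pair (0.0754) and in a fit over all 26 libraries (0.244).

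The other 4 genes did not pass. Cdh2 had 392, 356, 402, 283 and 418 CPM at 144h, against 339, 340, 377, 333 and 376 CPM at 120h, a log2 difference of 0.08 ± 0.07 (edgeR adjusted p = 0.527). The InvClone1 library with few mitochondrial counts was the lowest of the 5 at 144h, and the only one below its 120h partner. Without the InvClone1 pair, Cdh2 passed at 0.14 (edgeR adjusted p = 0.00488) and so did Cdh20 at -0.83 (0.0453), while 4934 genes passed in all.

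Pcdh8 had 40.1, 23.4, 37.9, 26.3 and 38.9 CPM at 144h, against 35.8, 37.3, 42.5, 29.2 and 32.2 CPM at 120h, and the stages overlapped throughout. Its log2 difference was -0.09 ± 0.13 (edgeR adjusted p = 0.688), with 2 lines higher and 3 lower. Cdh4 averaged 22.2 ± 3.27 CPM at 144h and 22.2 ± 2.88 CPM at 120h (SD, n = 5 each), a log2 difference of 0.02 ± 0.11 (adjusted p = 0.930). Cdh20, a type II cadherin known from the neural tube, averaged 0.714 ± 0.278 CPM at 144h and 1.14 ± 0.275 CPM at 120h (SD, n = 5 each), and its log2 difference of -0.68 ± 0.26 did not pass (edgeR adjusted p = 0.128) although it was lower in 5 of 5 lines. The median of the 8 log2 changes was -0.04, and the median over all genes -0.01.

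**Figure D2:**
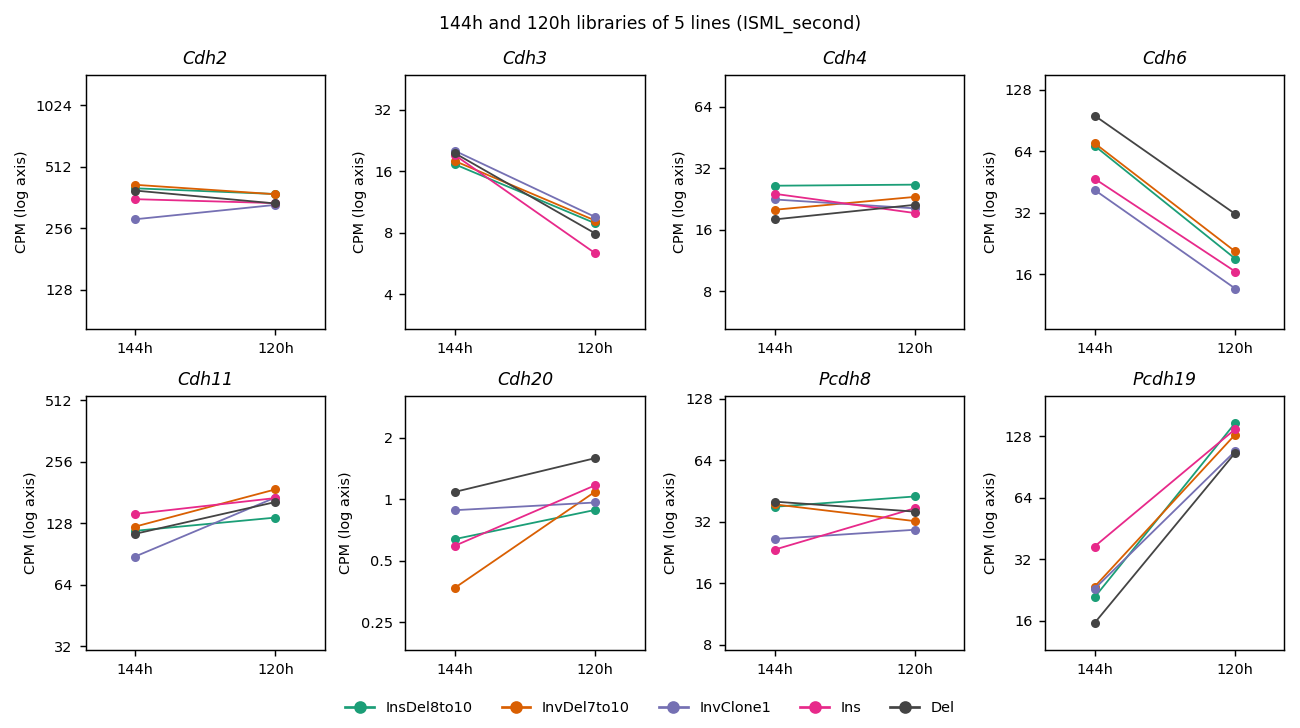
CPM on a log axis for each of the 8 genes in the 5 lines with ISML_second libraries at 144h (left) and 120h (right), with a line joining the libraries of one gastruloid line. All 5 lines are lower at 144h for Pcdh19 and higher at 144h for Cdh3 and Cdh6, while those of Cdh2, Cdh4 and Pcdh8 run near level or cross.

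A separate InvClone1 pair under the name ISML_third, not used in that fit, gave 19.8 CPM of Pcdh19 at 144h and 135 CPM at 120h, a ratio of 0.147. In that pair Cdh3 had 11.8 CPM at 144h and 4.16 CPM at 120h, and Cdh6 had 61.2 CPM at 144h and 29.8 CPM at 120h. Cdh11 had 106 CPM at 144h and 147 CPM at 120h. The 4 genes called in the 5 lines thus lay on the same side here, with ratios of 2.84 for Cdh3, 2.06 for Cdh6 and 0.722 for Cdh11. Pcdh8 differed from the 5 lines, with 24.1 CPM at 144h and 10.7 CPM at 120h in this pair, the latter its lowest level in all 26 libraries. Whether the stage change of the 8 genes differed between the 5 lines was tested jointly over all 26 libraries, after the data were seen. In edgeR 0% of 17769 genes passed, and the unadjusted p of the 8 genes ran from 0.388 for Cdh4 to 0.992 for Cdh6. Most of these lines had 1 library at 144h, and the fit had 8 residual degrees of freedom. The test therefore cannot show that the lines changed alike.

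Markers of several cell types moved with the stage in the same 10 libraries. All 8 neural tube markers rose, with Pou3f2 at a log2 change of 3.73 and Sox1 at 1.91, and their summed level was 432 to 818 CPM at 144h and 131 to 193 CPM at 120h. All 6 neuron markers rose, summing to 82.4 to 186 CPM at 144h and 17.8 to 23.8 CPM at 120h. Of 8 presomitic markers 7 fell, Lfng being the exception at -0.25, and the sum was 148 to 190 CPM at 144h and 352 to 462 CPM at 120h. All 7 tailbud markers fell, T by 1.89 on the log2 scale, and summed to 105 to 291 CPM at 144h and 383 to 479 CPM at 120h. Of 10 somite markers 6 fell and 2, Pax1 and Pax9, rose, with sums of 536 to 650 CPM at 144h and 977 to 1131 CPM at 120h. No marker of these lists was at 0 across either stage. Their part in the changes of Pcdh19, Cdh6, Cdh3 and Cdh11 was not tested.

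Markers of rarer tissues moved less evenly. Of 8 endoderm markers 3 rose (Krt8, Krt18 and Foxa2) and 2 fell (Sox17 and Trh), with sums of 268 to 394 CPM at 144h and 212 to 300 CPM at 120h that overlapped. Of 4 notochord markers Shh and Foxj1 rose, and Noto and Chrd did not pass, at log2 changes of -1.50 and -0.18. Of 7 endothelial markers Pecam1 rose and Tek fell, and of 4 intermediate mesoderm markers tested Lhx1 and Wt1 fell. None of the 3 neural crest markers tested and none of 6 pluripotency markers passed.

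Other genes of the adhesion system were counted by 4 lists. Of 14 other classical and related cadherins 9 were tested, of which 3 rose and 2 fell, with a median log2 change of 0.36. Cdh1, or E-cadherin, the epithelial counterpart of Cdh2, averaged 85.0 ± 20.2 CPM at 144h and 66.3 ± 9.45 CPM at 120h (SD, n = 5 each) and rose, with a log2 change of 0.36 (edgeR adjusted p = 0.0275). Cdh7 and Cdh22 rose, at log2 changes of 2.40 and 1.20, and Cdh18 and Cdh13 fell, at -1.82 and -0.84. Cdh7 was near the floor, with means of 0.844 CPM at 144h and 0.156 CPM at 120h, and Cdh22 was low, with 1.71 and 0.76 CPM. Of 8 other delta protocadherins 7 were tested and 4 rose: Pcdh17 at a log2 change of 2.44, Pcdh10 at 1.69, Pcdh7 at 0.80 and Pcdh18 at 0.69. None fell, and the median was 0.69, while Pcdh8 and Pcdh19 had negative values in the same fit.

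Among catenins and junction partners, genes moved in both directions. Of 14 listed 13 were tested, with 2 higher, 1 lower and a median log2 change of -0.04: Ctnnd2 (delta-catenin) rose at 0.82, Arvcf at 0.54, and Nectin1 fell at -0.89. Ctnnb1, or beta-catenin, had -0.14 ± 0.08 and did not pass (edgeR adjusted p = 0.293). Of 6 transcription factors linked to the switch between E-cadherin and N-cadherin, Zeb1 rose at 0.45 and Snai1 fell at -0.95, and 4 did not pass.

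**Figure D3:**
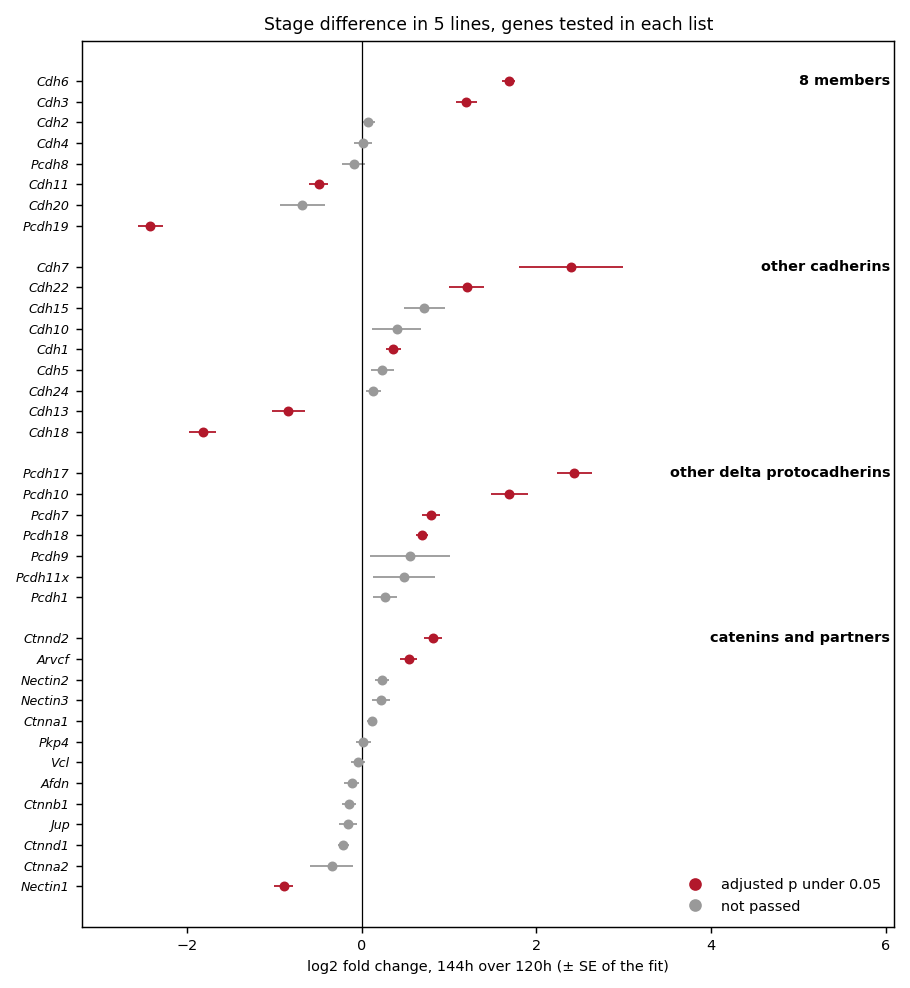
Log2 fold change of 144h over 120h in 5 lines (horizontal axis, bars ± SE of the edgeR fit) for the 8 genes, the other cadherins, the other delta protocadherins and the catenins and partners that were tested, with genes past the threshold in red. Pcdh19 at -2.42 lies furthest left, the delta protocadherins all lie right of 0 up to Pcdh17 at 2.44, and of the catenins and partners Ctnnd2, Arvcf and Nectin1 are past the threshold, on both sides of 0.

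InvClone1 was also followed from 96 to 168h with 1 ISML_third library at each time, which allows no test. Pcdh19 was lower at each later time: its level was 734.5 CPM at 96h (724 to 745, the 95% Poisson interval for counting alone), 135 at 120h, 19.8 at 144h and 14.0 CPM (12.6 to 15.4) at 168h. At 96h it exceeded Cdh2, with 71.5 against 63.8 FPKM, and Cdh2 then held 39.9% of the 8 genes' FPKM. At 168h Pcdh19 was at 0.0190 of its 96h level.

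Cdh11 and Cdh6 were higher at each time after 96h. Cdh11 had 26.3 CPM at 96h, 147 at 120h, 106 at 144h and 123 at 168h, so the difference from 96h was already present at 120h. Cdh6 had 10.0 CPM at 96h, 29.8 at 120h, 61.2 at 144h and 59.5 at 168h, a 5.93-fold higher level at the end. Pcdh8 was not monotonic, with 76.8 CPM at 96h, 10.7 at 120h, 24.1 at 144h and 42.1 at 168h. Its 120h value was the lowest of all 26 libraries. The InvClone1 libraries of other names at 120h had 18.9, 22.0 and 29.2 CPM of Pcdh8, so the low point rests on 1 library. Cdh3 had 8.57, 4.16, 11.8 and 10.9 CPM at the same times, and its lowest level was at 120h.

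Cdh2 stayed between 380 and 481 CPM, the narrowest relative range of the 8 genes in this series. Cdh4 had 18.3, 17.7, 15.3 and 34.5 CPM at 96, 120, 144 and 168h in these single libraries. Cdh20 had 2.40, 0.785, 0.577 and 3.57 CPM, on 59, 17, 13 and 100 reads. Presomitic markers summed to 1307, 176, 103 and 241 CPM at the 4 times, with Msgn1 at 0 at 144h and 168h. Dbx1, Pax1 and Nkx3-2 were at 0 at 96h, and Nkx3-2 also at 120h. Neural tube markers summed to 18.9, 81.2, 460 and 992 CPM and somite markers to 298, 799, 420 and 204 CPM, and the part of these shifts in the cadherin levels was not tested.

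**Figure D4:**
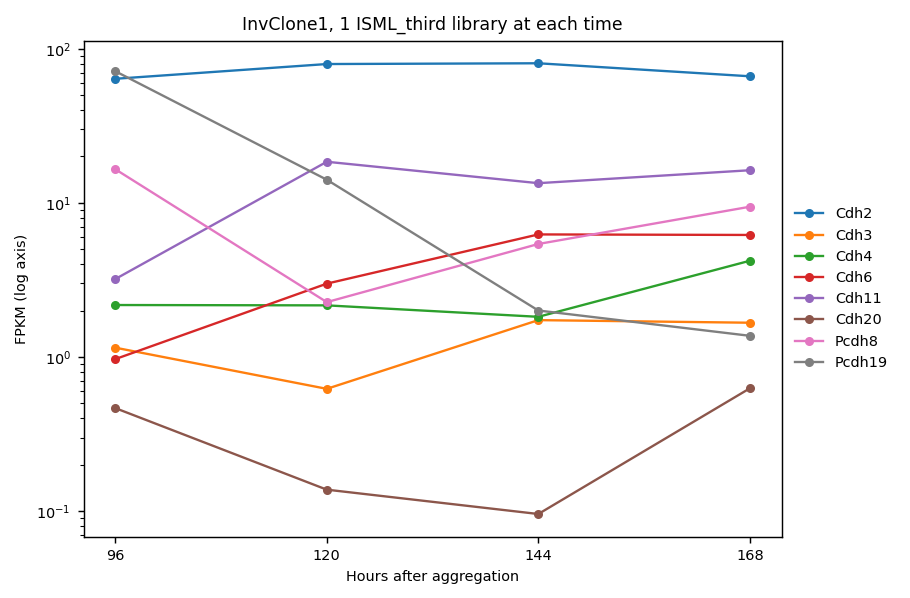
FPKM on a log axis of the 8 genes against hours after aggregation in InvClone1, 1 ISML_third library at each of 96, 120, 144 and 168h. Pcdh19 starts at 71.5 FPKM, above Cdh2, and ends at 1.37 FPKM, while Cdh2 stays between 63.8 and 80.5 FPKM.

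The lines were compared at 120h in 5 contrasts, each fitted in edgeR over all 26 libraries with group and library name as terms and 17769 genes tested. None of the 8 genes passed in any of them. The comparison of InsDel7to10 with InsDel5to10 called 0.253% of all genes, InsDel7to10 with InvClone2 0.141%, InsDel5to10 with InvClone2 0.152%, InvClone1 with Ins 0.0169% and Ins with Del 0.00563%. At an unadjusted p below 0.05, 1 of the 8 genes passed in the first of these, where 1895 of all 17769 genes did, 3 in the second, where 1587 did, and 0 in the others, where 1161, 169 and 188 did. DESeq2 called 0 of 8 in all 5 at an adjusted p of 0.05. No gene of the 15 lists passed in any of these comparisons.

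Pcdh19 was highest in InsDel7to10. It had 266 and 253 CPM in InsDel7to10, 223 and 186 CPM in InsDel5to10 and 130 and 108 CPM in InvClone2, all of the name ISML_third. The 3 lines did not overlap, but they had 2 libraries each, and the share of all genes so separated was not counted. The log2 difference of InsDel7to10 over InvClone2 was 1.12 ± 0.49 (edgeR adjusted p = 0.546), that of InsDel7to10 over InsDel5to10 0.34 ± 0.48 (adjusted p = 0.863), and that of InsDel5to10 over InvClone2 0.78 ± 0.49 (adjusted p = 0.781). Pcdh8 had 59.5 and 23.2 CPM in InsDel7to10 and 20.7 and 16.5 CPM in InvClone2, so a single library carried most of its log2 difference of 1.15 ± 0.44 (edgeR adjusted p = 0.481). Its replicates in InsDel5to10, with 27.1 and 25.3 CPM, were close.

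Among the same 3 lines, Cdh6 was lowest in InsDel7to10. It had 12.0 and 15.4 CPM in InsDel7to10, 63.0 and 24.9 CPM in InsDel5to10 and 41.2 and 20.03 CPM in InvClone2. Outside these lines, InvClone1 replicate 3 at 120h was lower still, at 8.22 CPM. The replicates of InsDel5to10 and of InvClone2 differed by more than the means of these lines did, and the InsDel7to10 libraries were both below them. The log2 difference of InsDel7to10 over InsDel5to10 was -1.68 ± 0.72 (edgeR adjusted p = 0.445) and over InvClone2 -1.16 ± 0.72 (adjusted p = 0.700). Cdh3 had 3.35 and 3.38 CPM in InsDel7to10 and 6.31 and 7.09 CPM in InvClone2, a log2 difference of -0.99 ± 0.35 (edgeR adjusted p = 0.406). Cdh2 differed by 0.09 to 0.19 on the log2 scale and Cdh11 by -0.09 to -0.01 among the 3 lines (edgeR adjusted p from 0.806 to 0.998).

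Ins and Del differ by the Ins(CBS5-10) allele. Cdh6 had 24.7, 37.0 and 16.5 CPM in Ins and 40.3, 75.8 and 31.6 CPM in Del. The lines overlapped, and Ins lay below Del of the same replicate number in 3 of 3 pairs. The share of all genes ordered alike was not counted, and pairing by number beyond library name was not tested. The log2 difference was -0.92 ± 0.57 (edgeR adjusted p = 1), and blocked by replicate number it was -0.89 (adjusted p = 0.0244), 1 of 2 genes passing, or 0.013% of those tested in that fit. Pcdh19 had 174, 63.8 and 139 CPM in Ins and 161, 60.2 and 106 CPM in Del, with replicate 2 lowest in both lines. Its log2 difference was 0.20 ± 0.40 and that of Pcdh8 0.24 ± 0.36, with 34.4, 29.1 and 37.3 CPM in Ins and 34.1, 16.1 and 35.8 CPM in Del (edgeR adjusted p = 1 for both).

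InvClone1 and Ins share only the name ISML_second at 120h, 1 library of each. Pcdh8 had 10.7, 18.9, 22.0 and 29.2 CPM in InvClone1 and 34.4, 29.1 and 37.3 CPM in Ins, with 1 InvClone1 library level with the lowest of Ins, and a log2 difference of -0.74 ± 0.51 (edgeR adjusted p = 1). Cdh6 had 29.8, 48.7, 8.22 and 13.6 CPM in InvClone1, a range wider than that of Ins, and a log2 difference of -0.13 ± 0.85. The TruSeq_second libraries of InvClone1, replicates 2 and 3, sat at both ends of its Cdh6 range and had 61.2 and 148 CPM of Cdh11.

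Library name went with level for some of the genes at 120h. Cdh3 had 6.33 to 9.54 CPM (median 8.88) in the 5 ISML_second libraries and 3.29 to 7.80 CPM (median 4.93) in the other 13. Cdh11 had 137 to 188 CPM (median 171) in the ISML_second libraries and 61.2 to 161 CPM (median 118) in the others. Both were higher in ISML_second by median, and both ranges overlapped. So was Pcdh8, with medians of 35.8 CPM in ISML_second and 23.2 CPM in the others. Cdh2 was lower in ISML_second, at 333 to 377 CPM (median 340), against 334 to 477 CPM (median 403) in the others. Cdh6 was lower too, with medians of 19.1 and 29.8 CPM, and these ranges also overlapped. The medians of Cdh4, Cdh20 and Pcdh19 were close. In the same libraries endoderm markers summed to 212 to 300 CPM in ISML_second and 17.0 to 299 CPM in the others, and endothelial markers to 84.7 to 162 CPM in ISML_second and 5.88 to 98.2 CPM in the others. The part of these markers in the levels of Cdh3 and Cdh11 was not tested. InsDel8to10 and InvDel7to10, with 1 library each at 120h, had 149 and 131 CPM of Pcdh19, 19.1 and 20.7 CPM of Cdh6 and 377 and 376 CPM of Cdh2, inside the range of the other lines. Their Cdh11 levels were 137 and 188 CPM, and that of InvDel7to10 lay above every library of the other lines.

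Relative spread over the 18 libraries at 120h separated the genes. The highest library exceeded the lowest by 1.43 times for Cdh2 and 1.71 times for Cdh4, by 2.90 to 3.08 times for Cdh3, Cdh11 and Cdh20, and by 4.42 times for Pcdh19, 5.58 for Pcdh8 and 9.21 for Cdh6.

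Genes whose pattern was most like each of the 8 were ranked by Pearson's r of log2(CPM + 1) over the 26 libraries among 12185 genes with a mean of at least 1 CPM. The libraries share lines, stages and library names, so r is a description of co-variation with those, and the value within the 18 libraries at 120h is given beside it. Pcdh19 was closest to Npbwr1 (r = 0.98, at 120h 0.93), Adgrd1 (0.97, at 120h 0.89) and Synm (0.97, at 120h 0.94). Pcdh8 was closest to Lfng, a Notch modifier of the segmentation clock (0.88, at 120h 0.87), then Celf4 (0.81, at 120h 0.81) and Adra2a (0.77, at 120h 0.73).

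Cdh11 was closest to Ebf3 (0.92, at 120h 0.86), Tgfbr3 (0.89, at 120h 0.90) and Aff3 (0.88, at 120h 0.83). Cdh6 was closest to Chl1, an adhesion molecule of neurons (0.88, at 120h 0.80), Serinc2 (0.87, at 120h 0.77) and Tanc2 (0.86, at 120h 0.78). Cdh3 was closest to the myosin genes Myo5c (0.94, at 120h 0.83) and Myo1d (0.93, at 120h 0.90) and to Sema3g (0.93, at 120h 0.79). Cdh2 was closest to Gjc1 (0.92, at 120h 0.89), Api5 (0.88, at 120h 0.86) and Rrm2 (0.88, at 120h 0.87). For Cdh4 the values were lower, with Kcnd3 (0.69, at 120h 0.66), Adarb1 (0.66, at 120h 0.75) and Gnao1 (0.64, at 120h 0.40). The same held for Cdh20, with Chrna3 (0.70, at 120h 0.44), Hspa12a (0.67, at 120h 0.55) and Spock2 (0.67, at 120h 0.39). Among the 8 genes themselves, Pcdh19 ran against Cdh6 (-0.73) and Cdh3 (-0.71) over 26 libraries, and less so within 120h (-0.39 and -0.38).

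Of the 11 marker lists, the one whose summed level had the largest absolute r with each gene over 26 libraries was picked after the values were seen. It was the neural tube list for Pcdh19 (-0.90) and the presomitic list for Pcdh8 (0.52) and Cdh6 (-0.75). For Cdh6 the neural tube list was level in absolute value, at 0.75. The notochord list was picked for Cdh3 (0.78) and Cdh2 (-0.74), and the neural crest list for Cdh11 (0.80) and Cdh20 (-0.59). For Cdh4 it was the pluripotency list (-0.49). The neural crest sum was mostly Ets1, with means of 168 CPM at 144h and 193 CPM at 120h in the ISML_second libraries. Erbb3, the next highest, averaged 9.20 and 7.94 CPM there, so these r values say little of the other neural crest markers. Within the 18 libraries at 120h it was the presomitic list for Pcdh8 (0.91) and Pcdh19 (0.63), the somite list for Cdh6 (-0.79) and the endoderm list for Cdh3 (0.85). At 120h it was the notochord list for Cdh2 (-0.90), the endothelial list for Cdh11 (0.90), the neural tube list for Cdh20 (-0.55) and the pluripotency list for Cdh4 (-0.53). The notochord sum was low and went with library name at 120h. It was 14.2 to 17.8 CPM in ISML_second, where Cdh2 was lower by median, and 1.05 to 12.7 CPM in the other libraries.

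By position in mm10, as the deposited table gives it, Cdh6 lies at chr15:13028700-13173675, Pcdh19 at chrX:133582859-133688987, Cdh3 at chr8:106510890-106557297 and Cdh11 at chr8:102632094-102785642, on the same chromosome as Cdh3. Pcdh8 lies at chr14:79766774-79771312 and overlaps the predicted gene Gm9748 at its 5′ end. Where counting ignores strand, reads of this pair cannot be told apart, so the Pcdh8 values carry that uncertainty.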

How the data were processed

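Deposited tables of read counts per gene and of FPKM were used. Per the submitters' processing notes, the authors' work involved cutadapt 1.18, STAR 2.7.10a and Cufflinks 2.2.1 on mm10. The deposited count table is named for HTSeq. Its version, strand setting and annotation were not found in the labels. The FPKM values are the authors' own and were used as deposited. Libraries were grouped by the genotype and stage in the labels, and 8 columns that match no sample were not used.

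CPM were computed from the counts with TMM-scaled totals. Tests were edgeR 4.0.16 quasi-likelihood tests (R 4.3.3, filterByExpr with a minimum count of 10) with Benjamini-Hochberg adjustment over all genes tested at 0.05. All 8 genes passed the filter. The genotype fit had 8 residual degrees of freedom and the stage fit 4. DESeq2 1.42.0, other scaling and filters, other covariates and left-out libraries were alternatives. No pair of libraries was identical, and replicate pairs differed beyond sampling noise (chi-square per degree of freedom 16.0 to 222).

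For Ins and Del, deviations of same-numbered libraries from their group means correlated at 0.63, 0.41 and 0.77. In both lines replicates 1 and 2 had the name ISML_first and replicate 3 ISML_second, which by itself can raise these values. They therefore do not show that the replicate numbers pair the libraries beyond library name. The text names all 8 genes and the 3 genes most correlated with each. By rule it also names up to 4 genes of each of 15 lists past the threshold. Further list genes were chosen after their values were seen (Foxa2, Cdh7, Lfng, Ctnnb1, Pax9, Msgn1, Dbx1, Nkx3-2, Noto, Chrd, Ets1 and Erbb3). The 8 genes and the lists were chosen with earlier results of these data known. Counting error limits the precision of every value, and an interval for it is printed for only a few of them.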

Additional observations from a re-analysis of the deposited data

How the results depend on the processing

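Of 87 values of the 8 genes at 144h against 120h under other settings, 77 kept their direction and side of the threshold. The number of genes called, 2429, ranged from 1424 to 4934 with 1 line left out (1424 without InsDel8to10, 1463 without Del, 1473 without InvDel7to10, 4934 without InvClone1). The 3 calls that were lost all concern Cdh11. The sign of Cdh4 and Pcdh8 turned in a fit of all 26 libraries chosen after seeing the data, to -0.0373 and 0.0168, and with 1 line left out they spanned -0.0672 to 0.0808 and -0.1835 to 0.0425.

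The genotype counts moved more, and the causes were not tested. InsDel7to10 against InsDel5to10 called 45 genes, 290 with DESeq2, 957 without a filter, 7 without a library term, 4 with the compared libraries only and 3 to 939 with 1 library left out (939 without InsDel7to10 replicate 2, 3 without InsDel5to10 replicate 1, 12 without its replicate 2, 7 without InsDel7to10 replicate 1). InsDel7to10 against InvClone2 called 25, 161 with DESeq2, 554 without a filter, 0 without a library term or with the compared libraries only, and 0 to 295 with 1 library left out (295 and 155 without InsDel7to10 replicates 1 and 2, 0 without either InvClone2 library). InsDel5to10 against InvClone2 called 27, 50 with DESeq2, 383 without a filter, 6 without a library term and 3 to 9 with 1 library left out. InvClone1 against Ins called 3, 9 without a filter and 3 to 303 with 1 library left out (303 without InvClone1 replicate 4). Ins against Del called 1, 2 with DESeq2, 89 without a filter and 0 with the compared libraries only.

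With the replicate number as a block, Ins against Del called 2 genes, InsDel7to10 against InsDel5to10 3, InsDel7to10 against InvClone2 0, InsDel5to10 against InvClone2 932 and InvClone1 against Ins 0. In the last 4 the samples share only a number: their deviations correlated at -0.18, -0.28, 0.44 and 0.09 to 0.49. Crossed numbers, tried after seeing the data, gave 4 and 0 genes in the first 2 of these. Of the 8 genes, the block called 1 in Ins against Del (Cdh6) and 3 in InsDel5to10 against InvClone2 (Cdh6 at 0.49, Pcdh8 at 0.52, Pcdh19 at 0.80, adjusted p 0.0313, 0.0443 and 1.139e-05). Without a filter on low counts 1 was called in Ins against Del (Cdh6), 1 in InsDel7to10 against InsDel5to10 (Cdh6), 3 in InsDel7to10 against InvClone2 (Cdh6, Pcdh8, Pcdh19) and 1 in InsDel5to10 against InvClone2 (Pcdh19).

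Signs turned in 34 of 496 genotype values, none of them past the threshold in the report. Cdh11 in InsDel5to10 against InvClone2 became 0.0015 with DESeq2 and 0.0016 with its size factors. Cdh20 in Ins against Del became -0.0334 without a library term, -0.0352 with the compared libraries only and -0.0144 with the block. For InvClone1 against Ins, Cdh4 became -0.0994, -0.0935 and -0.107 under those 3 settings, Cdh11 0.125 and 0.128 under the first 2, and Cdh2 0.0485 and Cdh3 -0.147 with the block. Leaving out 1 library gave, for Ins against Del, -0.0186 to 0.1542 for Cdh2, -0.4557 to 0.271 for Cdh20, -0.0336 to 0.5677 for Pcdh8 and -0.2741 to 0.7216 for Pcdh19. For InsDel7to10 against InsDel5to10 it gave -0.0469 to 0.2183 for Cdh2, -0.1354 to 0.2762 for Cdh4, -0.401 to 0.3346 for Cdh11 and -0.1707 to 1.1861 for Pcdh8, and for InsDel7to10 against InvClone2 -0.4022 to 0.2975 for Cdh11. For InsDel5to10 against InvClone2 it gave -0.0572 to 0.2769 for Cdh2, -0.8749 to 0.0686 for Cdh3, -0.2979 to 1.1319 for Cdh6 and -0.4282 to 0.3778 for Cdh11, and for InvClone1 against Ins -0.2861 to 0.2779 for Cdh6, -0.3996 to 0.1237 for Cdh11 and -0.3068 to 0.2604 for Pcdh19.

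Groups of 2 and 3 libraries limit the genotype tests. Where 1 of 2 libraries is left out, the lone one is assumed to vary like the other groups. Cdh20 rests on few reads, so its values are the least precise.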
